A study of Rattus norvegicus with 36 samples.

Results

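Dusp1 encodes a MAP kinase phosphatase (MKP-1), and its messenger RNA was followed here as 1 gene, identified by the Ensembl ID ENSRNOG00000003977, of 31546 gene IDs counted. The gene was selected on its CPM (counts scaled to a common total, defined below) in these same rats, a value that was higher after cocaine than after saline. Its differences between groups are therefore described without a test. RNA of the nucleus accumbens, the ventral part of the striatum and a hub of reward learning, came from Sprague-Dawley rats aged 8 weeks that had undergone conditioned place preference, in which a drug is paired with one compartment and the animal later chooses freely where to stay. Vulnerable and Non Vulnerable rats were conditioned with cocaine at 20 mg/kg, given intraperitoneally, and their treatment label counts 4 cocaine injections. Saline rats went through the same alternating schedule with saline only, and their label counts 4 injections of physiological serum. The drug and saline sessions of cocaine rats lasted 20 min and lay 6 h apart, so cocaine rats received saline injections as well. Each group held 3 rats, and each rat 4 technical replicates, called libraries below.

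The series describes rats that did or did not express the place preference, but no sample label equates Vulnerable with having expressed it, so the phenotype labels are kept. The preference test fell on the day after the last session, and the time from the last injection to tissue collection was not stated in the labels. Caudate putamen is named beside the accumbens in the extraction protocol, so how much dorsal striatum a sample held is unknown. The tissue label could not be checked against marker genes, because 0 of the gene IDs were paired with a symbol by the reference used here.

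As background, the Dusp1 protein sits in the nucleus and removes phosphate from both the threonine and the tyrosine of the activation loop of MAP kinases, which switches off p38, JNK and ERK. The gene is an immediate early gene: growth factors, stress, glucocorticoids and neuronal activity raise its transcription quickly and for a short time, so that the phosphatase acts as feedback on the kinases that help to induce it. In the striatum, cocaine raises extracellular dopamine, and dopamine receptors coupled to cAMP activate ERK and the transcription factor CREB in projection neurons. CREB binds the cAMP response element, whose full form is TGACGTCA.

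The promoter is shown because the region around the transcription start is a place where some of these inducers can act on Dusp1. Sites farther from the start were not searched, so absent matches in the window do not speak for them. It is the RefSeq window of GRCr8 at chr10:17184603-17184902, plus strand, with 250 bases before and 50 bases after the annotated start. Capitals mark every match to TGACG, the core of the cAMP response element, on either strand.
Dusp1 promoter: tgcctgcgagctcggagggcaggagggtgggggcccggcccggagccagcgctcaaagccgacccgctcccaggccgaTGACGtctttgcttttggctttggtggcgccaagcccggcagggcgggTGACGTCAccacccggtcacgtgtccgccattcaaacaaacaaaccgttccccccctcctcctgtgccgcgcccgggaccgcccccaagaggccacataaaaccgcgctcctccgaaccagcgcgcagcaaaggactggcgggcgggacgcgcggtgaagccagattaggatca

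The window held 1 full TGACGTCA, beginning 124 bases before the start, a sequence found in 1.83% of 33469 RefSeq promoter windows of the same length. TGACG occurred 3 times. One copy began 172 bases before the start, and the other two overlapped each other within the full element, 1 on each strand. At least 1 TGACG stood in 21.2% of promoter windows, and at least 3 in 1.11%. An E-box, CACGTG, began 107 bases before the start (6.42% of windows held one), and the GC box GGGCGG matched 3 times (8.97% of windows held at least 3). The AP-1 element TGACTCA, present in 4.63% of windows, had 0 matches on either strand. The same held for the EGR element GCGTGGGCG (0.544% of windows) and for the CArG box of the serum response element (1.64%). The core AGAACA of the glucocorticoid response element (20.7% of windows) also had 0 matches. The TATA box TATAAA, which 14.2% of windows held, had 0 exact matches as well. The window does hold cataaa, which differs from it only in the first letter and was not counted. GC content was 68%, against a median of 51.7% over all windows, and 88.85% of windows had a lower one. The shares above were taken over all windows, not over windows of similar GC content. How common the matches are among GC-rich windows was not counted. A match describes letters only, and no binding was measured.

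Dusp1 was well covered in every library. Total counts per rat ran from 41213813 to 64081679, and Dusp1 itself had 953 to 2552 counts per rat, so that counting error was 1.98% to 3.24% of its level. In Vulnerable rats 1 to 3 it had 1836, 2552 and 2434 counts, in Non Vulnerable rats 1932, 1985 and 2185, and in Saline rats 1454, 953 and 1079.

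Levels are given as CPM, counts scaled to a common library total, with TMM factors that adjust the totals for differences in RNA composition. Dusp1 stood at 35.6, 50.1 and 36.3 CPM in Vulnerable rats 1 to 3. It stood at 42.7, 40.7 and 54.1 CPM in Non Vulnerable rats. In Saline rats it stood at 28.8, 22.8 and 23.2 CPM. Every cocaine rat lay above every Saline rat, while the ranges of the cocaine groups overlapped. In bulk tissue, more cells that express the gene and more RNA per cell cannot be told apart.

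**Figure D1:**
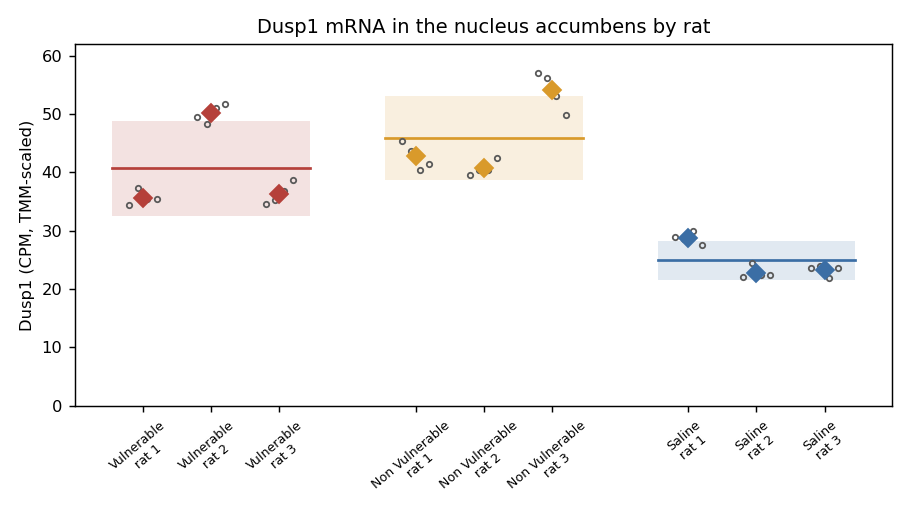
Dusp1 level in TMM-scaled CPM (vertical axis) for each rat. Diamonds are rats, open circles their 4 technical replicate libraries, lines group means and shaded bands 1 SD over 3 rats; the lowest cocaine rat, at 35.6 CPM, lies above the highest Saline rat, at 28.8 CPM.

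By group, the order from high to low was Non Vulnerable, Vulnerable and Saline. Dusp1 averaged 40.7 ± 8.18 CPM in Vulnerable rats, 45.8 ± 7.2 CPM in Non Vulnerable rats and 24.9 ± 3.31 CPM in Saline rats (SD, n = 3 each). The means of the cocaine groups differed by less than either group's SD. The Saline mean lay below both by more than any group's SD. Single rats ranked differently from their groups: the highest was Non Vulnerable rat 3 and the next Vulnerable rat 2, and the other 4 cocaine rats lay between 35.6 and 42.7 CPM.

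The spread among rats of a group was larger than the differences between technical replicates of a rat. At which step the replicates were split was not established here. Whether their differences include error of library preparation is therefore unknown. Error from steps before the split, such as dissection, is part of the spread between rats and was not measured apart. Within a rat, the 4 libraries differed by no more than 47.9 to 54.9 CPM on library totals, the range of Non Vulnerable rat 3. A chi-square of the library counts against the library totals gave 0.423 to 2.01 per degree of freedom, with a smallest p of 0.11 over 9 rats and 0.736 after Benjamini-Hochberg adjustment. Technical replicates were therefore summed and each rat counted as 1 sample. The SD over rats was 20.1% of the mean in Vulnerable, 15.7% in Non Vulnerable and 13.3% in Saline rats, against the counting error of at most 3.24% given above. The biological coefficient of variation that edgeR estimated for Dusp1 was 14.9%, against 12.3% on the trend for genes of that abundance.

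Dusp1 was higher in Non Vulnerable than in Saline rats by 0.88 on the log2 scale (SE 0.166), or 1.84-fold. All 3 Non Vulnerable rats lay above all 3 Saline rats, as was the case in that direction for 17.4% of 16029 genes tested. Fewer genes matched its size: 368 other genes (2.3%) had at least as large a log2 fold change, and 218 of the 13727 genes (1.59%) with a mean of at least 1 CPM. The median log2 fold change over all genes was 0.02 with TMM and -0.09 on library totals. Relative to that median, Dusp1 was 0.86 higher on the log2 scale under both.

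In Vulnerable against Saline rats the log2 fold change of Dusp1 was 0.71 (SE 0.166), or 1.63-fold. Again every Vulnerable rat lay above every Saline rat, which held in that direction for 6.76% of genes. At least as large a log2 fold change was seen in 281 other genes (1.75%), and in 108 genes (0.787%) of those with a mean of at least 1 CPM. Without Vulnerable rat 2, whose level of 50.1 CPM stood above those of the other Vulnerable rats, the log2 fold change was 0.53 (SE 0.145). Both comparisons share the Saline rats, so they are not independent of each other.

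The cocaine groups differed little in Dusp1. The log2 fold change of Vulnerable against Non Vulnerable rats was -0.17 (SE 0.164), close to its standard error, and the groups overlapped. For comparison, all Vulnerable rats lay below all Non Vulnerable rats for 24.9% of genes. The size of the difference depended on single rats: it was -0.35 (SE 0.147) without Vulnerable rat 2, -0.03 (SE 0.175) without Vulnerable rat 1, -0.04 (SE 0.166) without Non Vulnerable rat 3 and -0.05 (SE 0.183) without Vulnerable rat 3. On library totals without TMM it was -0.06 (SE 0.149). That scaling also moved the median of all genes, to 0.09 from the -0.04 found with TMM, and relative to these medians Dusp1 stood at -0.15 on library totals and -0.14 with TMM.

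Taking the mean of both cocaine groups against Saline, the log2 difference was 0.79 (SE 0.148), or 1.73-fold. Cocaine was higher in 18 of 18 pairs of a cocaine and a Saline rat, with ratios from 1.24 to 2.37 and a median of 1.75. The pairs reuse the same 6 cocaine and 3 Saline rats, so 18 of 18 only restates that the groups did not overlap. All 6 cocaine rats exceeded all 3 Saline rats for 85 genes, 0.53% of those tested, and Dusp1 was one of them. Most of these genes moved little: their median log2 difference was 0.18, and 11 of them differed by at least 1.5-fold. Dusp1 ranked 9 by size among the 85, and 4 among the 78 with a mean of at least 1 CPM. Cocaine rats were divided by phenotype and Saline rats were not, and the mean of the 2 cocaine groups gives each the same weight.

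**Figure D2:**
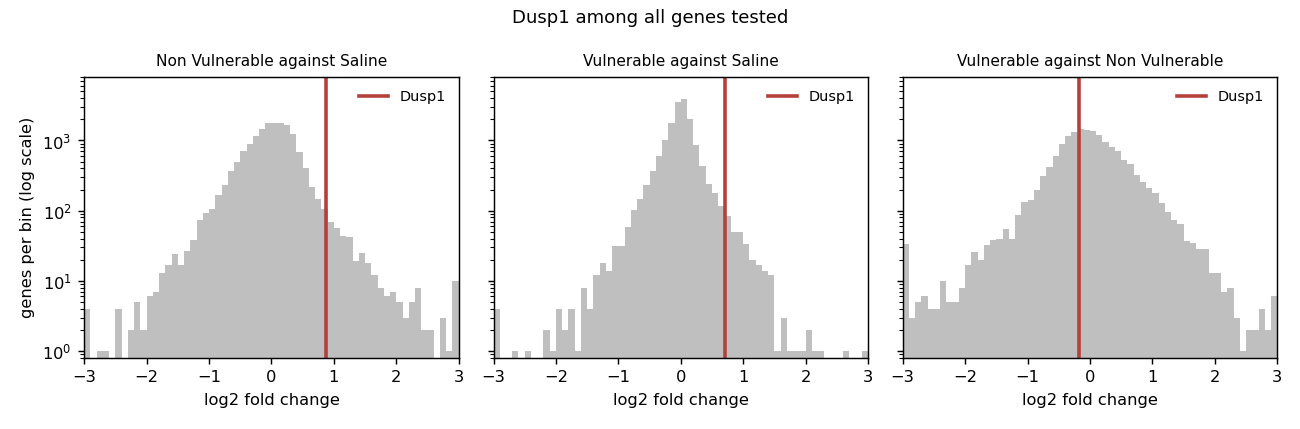
Number of genes (vertical axis, log scale) by log2 fold change (horizontal axis, bins of 0.1) for 16029 genes in 3 comparisons, with values beyond the axis in the end bins. The line marks Dusp1, in the right tail at 0.88 and 0.71 against Saline and near the middle, at -0.17, for Vulnerable against Non Vulnerable rats.

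The direction of the Dusp1 differences from Saline was the same in each setting tried. Every cocaine rat lay above every Saline rat, so leaving out a rat could change the size but hardly the direction. All settings used the same rats on which the gene was selected, so they describe the size and do not test the difference. Over 15 alternatives the log2 fold change ran from 0.74 to 0.96 for Non Vulnerable and from 0.53 to 0.82 for Vulnerable rats, and over 14 alternatives from 0.70 to 0.88 for the mean of both. These alternatives covered other scalings, no filter on low counts, the rat number as a block, DESeq2, only the compared groups (not for the mean of both), and each rat left out in turn. The difference between Vulnerable and Non Vulnerable rats stayed negative, from -0.35 to -0.03. None of the 4 differences moved by more than the SD between rats of a group, 0.23 on the log2 scale. For Vulnerable against Non Vulnerable rats this says little, since that SD is larger than the difference itself, -0.17.

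**Figure D3:**
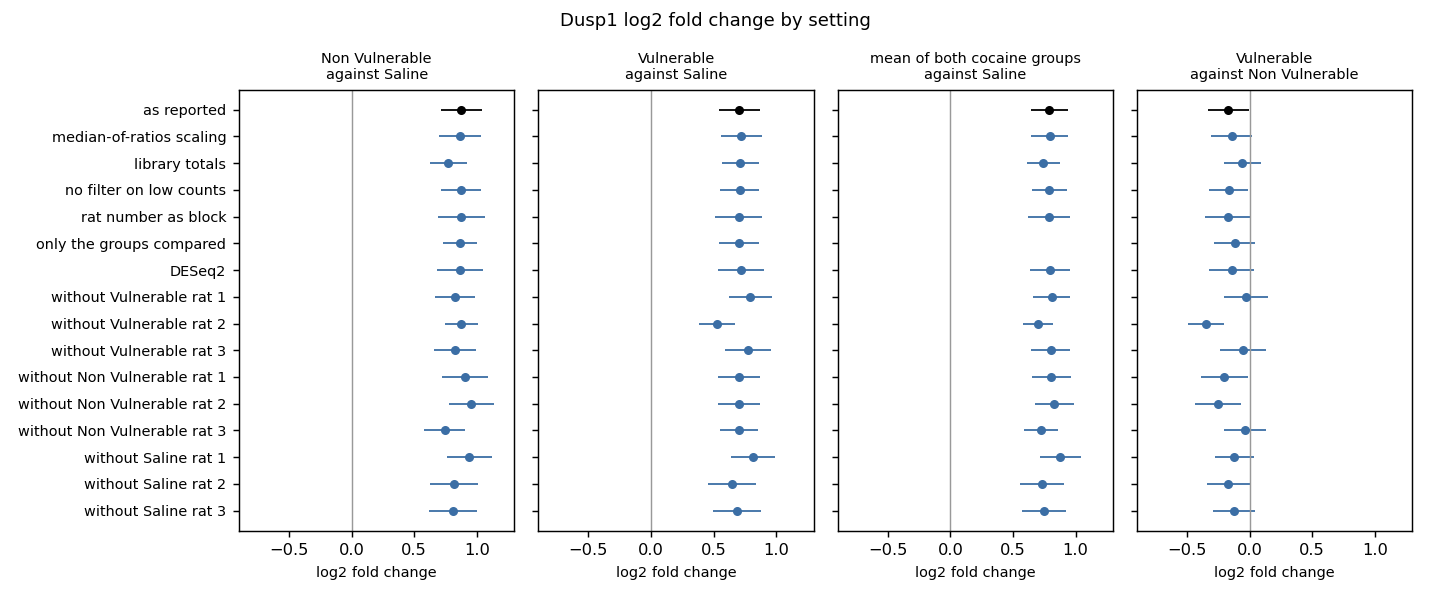
Log2 fold change of Dusp1 (horizontal axis) with its standard error (bars) in 4 comparisons, one row per setting, the value as reported in black. Values against Saline stay at 0.53 or above in every row, and those of Vulnerable against Non Vulnerable rats lie between -0.35 and -0.03.

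Dusp1 did not follow the main axis of variation of the series. Over all genes, edgeR's quasi-likelihood test at an adjusted p under 0.05 called 5050 genes (31.5%) between Vulnerable and Non Vulnerable rats, 2351 (14.7%) between Non Vulnerable and Saline rats, and 0 (0%) between Vulnerable and Saline rats, where 807 had an unadjusted p under 0.05 and DESeq2 called 29. For the mean of both cocaine groups edgeR called 0 (0%), 1391 had an unadjusted p under 0.05 and DESeq2 called 96. The first principal component of log2 CPM, with 40.2% of the variance, placed Vulnerable rats at 21.7 to 34.2, Non Vulnerable rats at -58.5 to -7.51 and Saline rats at 7.3 to 10.1. Saline rats lay between the cocaine groups on this axis, whereas their Dusp1 levels lay below both. Of the Non Vulnerable rats, rat 1 stood nearest to the Saline rats, at -7.51, and had 18.2% of its counts in its 10 most counted genes, against 10.5% to 13.3% in every other rat of the series. Its Dusp1 level was 42.7 CPM with TMM, between those of the other Non Vulnerable rats, and 38.5 CPM on library totals, the lowest of its group. Without that rat the log2 fold change of Non Vulnerable against Saline rats was 0.91 (SE 0.185).

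**Figure D4:**
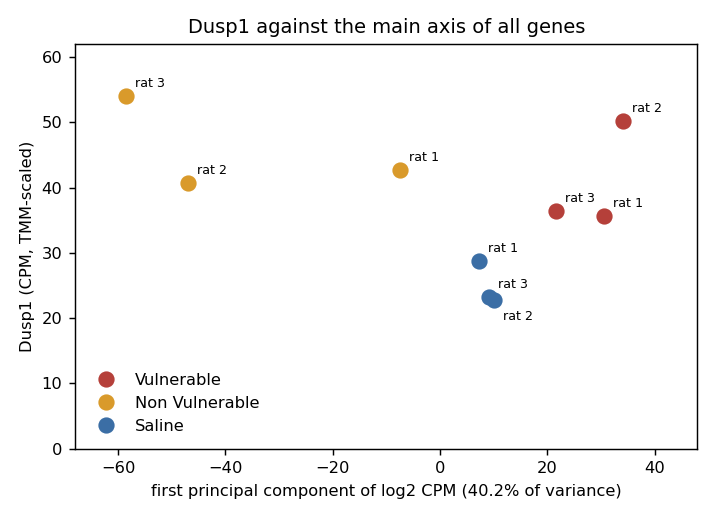
Dusp1 level in TMM-scaled CPM (vertical axis) against the first principal component of log2 CPM over all genes (horizontal axis), 1 point per rat. Saline rats, at 22.8 to 28.8 CPM, lie between both cocaine groups along the component and below both in Dusp1.

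Genes were also ordered by how closely they followed Dusp1 over the 9 rats. Across rats, log2 CPM of 13726 other genes with a mean of at least 1 CPM was correlated with that of Dusp1 as a description, with no p, since the 9 points share their grouping and their scaling. The median Pearson correlation was 0.0424, with quartiles of -0.262 and 0.346. The files and the reference used here do not pair the IDs with names, so the 2 most and the 2 least alike are given by ID.

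ENSRNOG00000013186 was most alike (r = 0.924, Spearman's rho 0.85), but over a narrow range. It had 128, 135 and 127 CPM in Vulnerable rats, 136, 134 and 134 CPM in Non Vulnerable rats and 123, 122 and 121 CPM in Saline rats. It shared with Dusp1 the gap between all cocaine and all Saline rats, with a much smaller difference. On library totals without TMM its correlation was 0.488, so the likeness depended on the scaling.

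ENSRNOG00000011342 came next (r = 0.915, Spearman's rho 0.917). It had 1.82, 2.26 and 2.09 CPM in Vulnerable rats, 1.86, 1.99 and 2.3 CPM in Non Vulnerable rats and 1.78, 1.65 and 1.59 CPM in Saline rats. Its highest rats were those of Dusp1, Non Vulnerable rat 3 and Vulnerable rat 2. After subtracting group means, which leaves the differences among rats of a group, its correlation with Dusp1 was 0.844, against 0.647 for ENSRNOG00000013186.

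Least alike were ENSRNOG00000022218 (r = -0.886) and ENSRNOG00000015271 (r = -0.876). ENSRNOG00000022218 had 8.51, 5.6 and 6.57 CPM in Vulnerable rats, 7.17, 6.37 and 6.24 CPM in Non Vulnerable rats and 8.23, 9.04 and 11.4 CPM in Saline rats. Vulnerable rat 1 overlapped the Saline rats for this ID. ENSRNOG00000015271 had 4.25, 4.17 and 4.84 CPM in Vulnerable rats, 3.83, 4.14 and 3.81 CPM in Non Vulnerable rats and 5.04, 4.89 and 5.53 CPM in Saline rats. All its Saline rats lay above all its cocaine rats.

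**Figure D5:**
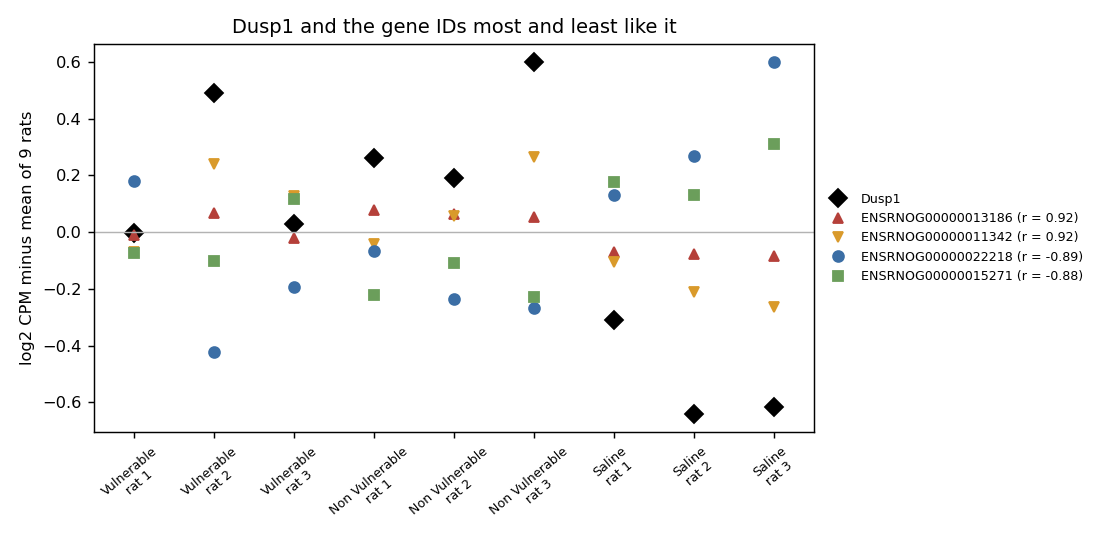
Log2 CPM minus the mean over 9 rats (vertical axis) for Dusp1 and the 4 gene IDs most and least like it, by rat (horizontal axis). Dusp1 spans the widest range shown, with the 3 Saline rats lowest, and ENSRNOG00000013186, the most alike (r = 0.92), moves in the same direction over a much narrower range.

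No other gene overlaps Dusp1 in the RefSeq annotation of GRCr8, in which a long non-coding RNA locus precedes it and Neurl1b follows it. Whether the counting used strand was not stated. Genes of the wider pathway (other MAP kinase phosphatases, MAP kinases, immediate early genes, glucocorticoid-induced genes) and markers of vascular, glial and blood cells could not be matched to gene IDs, so their part in the Dusp1 difference was not tested.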

How the data were processed

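The files the authors deposited are 36 tables, 1 per library, of raw counts: whole numbers of reads for each Ensembl gene ID, without normalization. Per the labels' protocols, polyA-selected RNA was made into libraries with a strand-specific kit. Per the submitters' processing notes, tools included STAR, HTSeq 0.5.3 and bcl2fastq 2.17.1.14. Not given in the sources used here were the genome build, the annotation and whether counting used strand. The tables held no row for unassigned reads.

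Counts of the 4 libraries of a rat were added up (n = 3 rats per group, taken as separate animals from their numbering in the labels). edgeR 4.0.16 in R 4.3.3 was fitted to all 9 rats with filterByExpr (16029 genes), TMM and robust glmQLFit, leaving 6 residual degrees of freedom. P-values were Benjamini-Hochberg adjusted over all genes. SEs came from the quasi-likelihood F statistic. The prior count of log2 CPM was 2. DESeq2 1.42.0 was an alternative. The procedure was tested on simulated data. Counting errors cover counting only. The gene, lists and tests were chosen with earlier results of these data known. The 16 gene lists (188 entries) could not be used, since 0 IDs matched a symbol in the RefSeq table of GRCr8. IDs beside Dusp1 were named by a rule: the 2 of highest and the 2 of lowest correlation with it.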

Additional observations from a re-analysis of the deposited data

Results flagged for a closer look

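The 4 libraries of Saline rat 2 had 1 library set apart in Dusp1 CPM: its gap to the nearest other library was 0.83 of the range, just past the limit of Dixon's test for 4 values. All 4 lay between 22.3 and 24.7 CPM on library totals, and their counts did not differ beyond sampling noise (chi-square p = 0.669). Chance flags about 1 in 20 such groups, and 9 rats were examined.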

How the results depend on the processing

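The Dusp1 differences from Saline kept their direction and moved by less than the SD between rats in all alternatives run. The difference between Vulnerable and Non Vulnerable rats, at -0.17 smaller than that SD, stayed negative but ran from -0.35 to -0.03. Counts of genes called moved more. Non Vulnerable against Saline gave 2351 genes, 1164 with only the groups compared, 3724 with DESeq2 and 251 to 3615 with 1 rat left out (lowest without Saline rat 2, highest without Non Vulnerable rat 1). Vulnerable against Non Vulnerable gave 5050 genes, 3942 with only the groups compared and 6045 with DESeq2. With 1 rat left out it gave 2798 to 5841 (lowest without Non Vulnerable rat 2, highest without Non Vulnerable rat 1). Vulnerable against Saline gave 0, 1 on library totals and 29 with DESeq2; the mean of both cocaine groups gave 0, and 96 with DESeq2. On library totals 117 genes were higher and 1857 lower for Non Vulnerable against Saline, where TMM gave 1091 and 1260, and 3282 and 896 for Vulnerable against Non Vulnerable, where TMM gave 2419 and 2631. With the rat number as a replicate block the first 2 counts were 2453 and 5160 and the others 0. Same-numbered rats did not deviate together (correlations of -0.137 to 0.19), so the numbers were not taken as pairs. The correlations of the 4 named IDs with Dusp1 kept their sign, including after group means were subtracted, an alternative chosen after seeing the data, but the 2 most alike IDs changed with the scaling, the measure and the rats used. Counting error was small beside the spread between rats, so the 3 rats per group, more than depth, limit the precision. The alternatives planned for the gene lists were not run, since the lists could not be matched, and for the mean of both cocaine groups the fit of only the groups compared is the fit as reported.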
